A study of Rattus norvegicus with 4 samples.

Results

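The genes described here are 9 genes of the circadian clock and its first line of output: Arntl, Dbp, Tef, Per1, Per2, Per3, Nr1d1, Nr1d2 and Ciart. They were taken by symbol from the feature table of a rat single-cell RNA series and make up 9 of its 25399 genes. Each symbol matched 1 row. They were selected on their CPM per cell class and library in these same data, among known clock genes. The differences between libraries below are therefore descriptions of chosen genes, with no test.

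The circadian clock is a loop of transcription factors that runs in most cells of the body, skeletal muscle and its vessels included. ARNTL (also BMAL1) pairs with CLOCK, binds E-boxes and drives the Per and Cry genes, the Nr1d genes, Ciart, Dbp and Tef. PER and CRY proteins then repress the pair, and NR1D1 and NR1D2 repress Arntl from ROR elements. Arntl transcript consequently peaks at another time of day than Dbp, Tef, Nr1d1, Nr1d2 and the Per genes. DBP and TEF are PAR bZIP factors that pass the rhythm on to D-box genes.

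The series holds 4 libraries from rats of 12 months of 2 muscles, with 1 labelled WT and 1 labelled DMD from each. TA is the tibialis anterior, a limb muscle, and EOM the extraocular muscles, which move the eye. Groups follow the disease state field, wild-type (WT) or DMD, an abbreviation that the labels do not spell out. In all 4 samples the title gives the opposite disease state, so libraries are called labelled WT or labelled DMD throughout. Reading the titles instead would turn every difference between labelled DMD and labelled WT. The labels list no treatment and give neither strain, DMD allele, number of animals per library nor hour of sampling. All groups were total cells of enzyme-digested muscle, counted with 10x Genomics 3' chemistry version 3.1.

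With 1 library a group there is no replicate, and animal, hour of sampling, digestion and disease state cannot be told apart. The feature Dmd, the gene with the same symbol as the label, stood at 29.6 counts per 1e+06 (CPM, below) over the analysed cells of TA labelled WT and 25.4 in TA labelled DMD, and at 26.8 and 21.0 in EOM labelled WT and labelled DMD. It was lower in mural-like cells labelled DMD, with 62.6 and 37.0 CPM in TA labelled WT and labelled DMD and 60.3 and 37.4 in EOM. Satellite-like cells held 126 and 70.5 CPM in TA and 66.9 and 72.3 in EOM. Endothelial-like cells held 16.3 and 18.9 CPM in TA and 14.8 and 13.4 in EOM, with intervals that overlap. The largest difference, 7.36 and 70.5 CPM in myofibre-like cells of TA, had the other sign and rests on 2 and 22 UMIs. A 3' tag outside a deleted part would check nothing, and which part of the gene is altered is not given. Analysed cells numbered 2083, 7964, 1249 and 2261 in that order. They had medians of 2482, 1221.5, 3654 and 4486 unique molecular identifiers (UMIs), the count of captured RNA molecules, and TA labelled DMD was the shallowest per cell. Pairs of libraries shared 0 to 5 analysed barcodes, at most 0.24% of the smaller library.

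A level here is the UMIs of a gene summed over the cells of a class in 1 library, per 1e+06 UMIs of that sum (CPM). Intervals are exact 95% Poisson intervals for a level and exact conditional binomial intervals for a fold, and they cover counting error only. Classes are called by their markers. Endothelial-like, mural-like (pericytes and vascular smooth muscle) and satellite-like cells (muscle stem cells) had at least 50 cells in all 4 libraries. Endothelial-like cells numbered 1562, 2807, 545 and 583, mural-like cells 180, 1591, 90 and 157, and satellite-like cells 56, 296, 135 and 225. All 8 endothelial markers in the table were highest in the endothelial-like class in 3 libraries, and 6 of 8 were in TA labelled DMD. All 10 mural markers were highest in their class in every library. All 8 satellite markers were in 3 libraries and 6 of 8 in TA labelled DMD, and of 9 markers of fibro-adipogenic progenitors (FAP) 9 were in EOM labelled WT and 6 in each library labelled DMD. None of the markers of these classes was at 0 in it. Cells were clustered without the 9 genes and without 18 other clock genes.

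The DNA before the start sites of these genes is shown first, because the loop acts through short motifs there. RefSeq promoters on build GRCr8 span 250 bases before to 50 after a start site. All 9 genes matched an entry, 8 by symbol and Arntl by its synonym Bmal1, and Nr1d1 had 2 windows, 10 in all. The motifs searched on both strands were the E-box CACGTG, the D-box TTANGTAA, the ROR element ANTNGGTCA and the cAMP response element TGACGTCA. Of all 33469 promoters, 6.418% held the E-box, 2.238% the D-box, 2.486% the ROR element and 1.829% the cAMP response element. An E-box lay in the windows of Tef, Nr1d1 and Ciart, 3 of 9 genes. Per2 alone held the D-box, Arntl alone held the ROR element, and 0 genes held the cAMP response element. In the lines below capitals mark the motif, and each stretch ends at the base before the start site or 40 bases past the motif, 5' to 3' on the gene's strand.
Tef, chr7:115206589-115206674, plus strand: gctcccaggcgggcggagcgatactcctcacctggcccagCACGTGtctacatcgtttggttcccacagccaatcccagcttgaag
Nr1d1, chr10:84229600-84229685, minus strand: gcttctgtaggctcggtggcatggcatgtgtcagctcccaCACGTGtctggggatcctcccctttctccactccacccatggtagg
Ciart, chr2:186112294-186112379, minus strand: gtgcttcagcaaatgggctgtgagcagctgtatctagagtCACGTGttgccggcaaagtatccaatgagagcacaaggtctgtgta
Per2, chr9:99497138-99497225, minus strand: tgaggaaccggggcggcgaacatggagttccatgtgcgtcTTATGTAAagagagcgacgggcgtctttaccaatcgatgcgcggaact
Arntl, chr1:176766270-176766327, plus strand: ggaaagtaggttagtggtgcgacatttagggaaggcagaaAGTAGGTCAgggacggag

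The first base of the motif lay 198 bases before the start site in Tef, 191 in the second window of Nr1d1, 192 in Per2 and 18 in Arntl. Ciart held 3 E-boxes, at 93, 35 and 21 bases before its start. The match in Arntl is of the element type that NR1D1 and NR1D2 are known to occupy. No match means only that these letters are not in the window searched, as for Dbp, Per1, Per3 and Nr1d2. These are matches of letters and the series holds no measurement of binding.

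Arntl, the activator, was lower in the library labelled DMD in all 3 shared classes of both muscles. In endothelial-like cells it stood at 24.3 CPM (95% interval 19.6 to 29.7, 94 UMIs) in TA labelled WT, 8.36 CPM (6.46 to 10.6, 66 UMIs) in TA labelled DMD, 35.2 CPM (26.1 to 46.4, 50 UMIs) in EOM labelled WT and 17.0 CPM (11.3 to 24.6, 28 UMIs) in EOM labelled DMD. Both libraries labelled WT were above both labelled DMD. The level was 2.91-fold lower in TA labelled DMD (2.10 to 4.04) and 2.07-fold lower in EOM labelled DMD (1.28 to 3.42).

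In mural-like cells Arntl was again lower in each library labelled DMD, with 45.1, 15, 33.7 and 16.7 CPM in TA labelled WT, TA labelled DMD, EOM labelled WT and EOM labelled DMD. The difference was 3.01-fold in TA (1.93 to 4.65) and 2.01-fold in EOM, where 14 against 13 UMIs gave an interval of 0.878 to 4.66 that includes 1. In satellite-like cells the levels were 18.0, 2.61, 28.9 and 12.8 CPM in the same order, from 6, 2, 22 and 16 UMIs. The TA ratio was 6.90-fold lower with an interval of 1.23 to 70.0 because so few molecules were counted, and the EOM ratio was 2.25-fold lower (1.13 to 4.57). FAP-like cells, connective tissue cells that had too few members in TA labelled WT, gave 31.2 CPM in EOM labelled WT and 15 in EOM labelled DMD, 2.07-fold lower (1.41 to 3.03). In TA labelled DMD, FAP-like cells stood at 14.1 CPM. Of 8 pairs of class and muscle, Arntl was lower in the library labelled DMD in 7, with an interval excluding equality in 6. Most genes were lower too at this scaling. Of genes with at least 20 CPM, 34.6% (EOM FAP-like) to 43.6% (TA satellite-like) had a log2 ratio above 0, myofibre-like cells not counted. The pair with the other sign was TA myofibre-like cells, with 1 against 4 UMIs. Thinned to 1000 UMIs per cell, the log2 ratio of Arntl kept its sign in endothelial-like cells. It was -0.78 in TA (-1.25 to -0.31) and -0.79 in EOM (-1.58 to -0.0006). In mural-like cells it was -0.86 in TA (-1.83 to 0.11) and -0.26 in EOM (-1.88 to 1.36), the same sign with intervals that include 0. In satellite-like cells it went from -1.15 to 0.00 in TA, where 0 cells kept a UMI, and from -0.77 to 0.14 in EOM (-1.38 to 1.65). The satellite-like direction thus rests on the full depth, and the thinned mural-like values do not settle a direction.

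**Figure D1:**
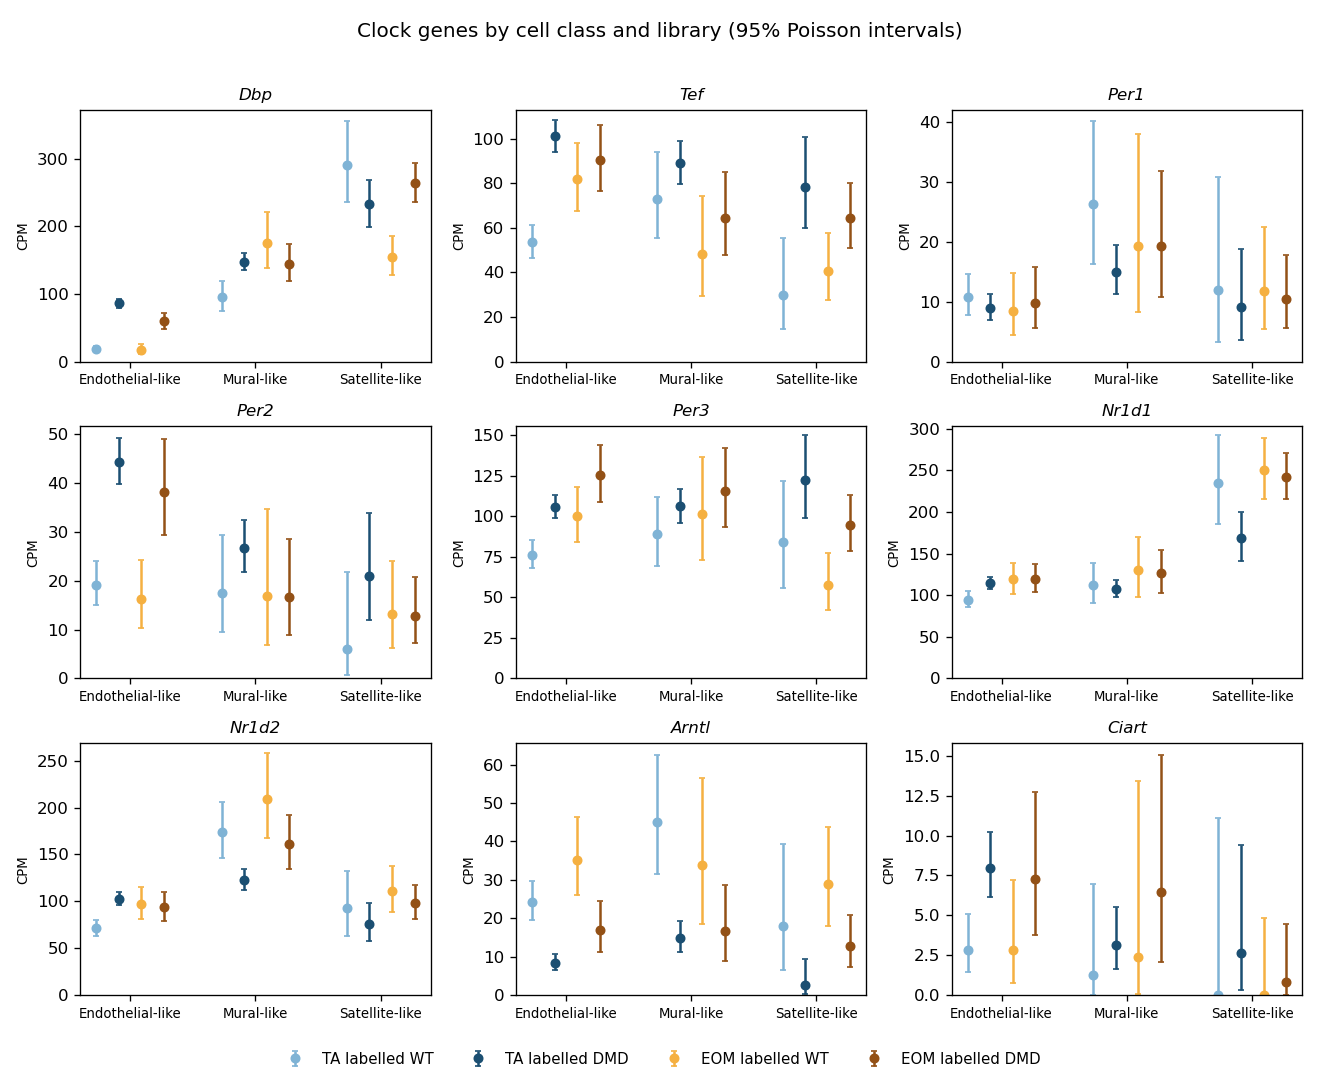
CPM of each of the 9 genes (vertical axes, from 0) in endothelial-like, mural-like and satellite-like cells of the 4 libraries, with exact 95% Poisson intervals that cover counting error only. Arntl sits lower in the libraries labelled DMD in each class, and Dbp in endothelial-like cells goes from 18.9 to 86.0 CPM in TA and from 17.6 to 59.5 CPM in EOM. Erythroid-like cells of TA labelled DMD, not drawn here, hold 77.5 CPM of Dbp.

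Dbp, a PAR bZIP output factor and a direct target of the activator pair, went the other way in endothelial-like cells. It stood at 18.9 CPM (14.8 to 23.7, 73 UMIs) in TA labelled WT, 86.0 CPM (79.6 to 92.7, 679 UMIs) in TA labelled DMD, 17.6 CPM (11.4 to 26.0, 25 UMIs) in EOM labelled WT and 59.5 CPM (48.3 to 72.5, 98 UMIs) in EOM labelled DMD. The libraries labelled WT had overlapping intervals and lay below both labelled DMD. The ratio of labelled DMD to labelled WT was 4.56 in TA (3.58 to 5.89) and 3.38 in EOM (2.16 to 5.47). Erythroid-like cells, which should lack the gene, held 77.5 CPM in TA labelled DMD (52.6 to 110) and 0 UMIs in TA labelled WT. The part of such background in the TA ratio was not tested.

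Outside endothelial-like cells the Dbp difference was smaller or had the other sign. Mural-like cells held 95.2, 147, 176 and 144 CPM in TA labelled WT, TA labelled DMD, EOM labelled WT and EOM labelled DMD. The ratio was 1.55 in TA (1.22 to 1.99) and 0.820 in EOM (0.605 to 1.12). Satellite-like cells held 292, 232, 155 and 264 CPM, giving ratios of 0.797 in TA (0.619 to 1.03) and 1.71 in EOM (1.38 to 2.12). EOM FAP-like cells had 99.2 CPM labelled WT and 194 CPM labelled DMD, a ratio of 1.95 (1.65 to 2.33). Myofibre-like cells of TA were alike within counting error, at 51.5 and 54.5 CPM. Both ratios below 1 had intervals that include 1, and thinned to 1000 UMIs per cell their log2 values turned from -0.27 to 0.53 in EOM mural-like and from -0.31 to 0.45 in TA satellite-like cells. Whether the ratio differs between classes was not tested, since 1 library a group gives no error for it.

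Tef, the other PAR bZIP factor of the set, was also higher in the libraries labelled DMD of endothelial-like cells, with smaller ratios than Dbp there. In endothelial-like cells it was at 53.5 CPM in TA labelled WT, 101 in TA labelled DMD, with 81.7 in EOM labelled WT and 90.5 in EOM labelled DMD. The ratio was 1.89 in TA (1.62 to 2.21), and the EOM ratio of 1.11 had an interval that includes 1. Mural-like levels were 72.7, 89.0, 48.2 and 64.4 CPM, and satellite-like levels 30.1, 78.3, 40.7 and 64.2 CPM in the same order. Satellite-like cells had ratios of 2.61 in TA (1.32 to 5.71) and 1.58 in EOM (1.03 to 2.48). The TA value rests on 10 UMIs in TA labelled WT, and with each cell thinned to 1000 UMIs its log2 ratio went from 1.14 to -0.067. Tef was higher in the library labelled DMD in 7 of 8 pairs of class and muscle, with 4 intervals excluding equality, and lower in TA myofibre-like cells (36.8 and 28.9 CPM).

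The Period genes encode the repressors of the loop, and they did not move as a set. Per2 in endothelial-like cells stood at 19.1 CPM in TA labelled WT, 44.3 in TA labelled DMD, with 16.2 in EOM labelled WT and 38.3 in EOM labelled DMD. Both libraries labelled DMD lay above both labelled WT, with ratios of 2.32 in TA (1.80 to 3.02) and 2.36 in EOM (1.44 to 3.99). Mural-like cells gave 17.5, 26.8, 16.9 and 16.7 CPM for Per2, and satellite-like cells 6.01, 20.9, 13.1 and 12.8 CPM, from 2 to 102 UMIs. All 4 of those intervals of the ratio include 1. In EOM FAP-like cells Per2 was at 8.27 and 15.2 CPM, a ratio of 1.84 (1.01 to 3.63).

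Per3 was higher in the library labelled DMD in all 8 pairs of class and muscle, with 5 intervals excluding equality. Endothelial-like levels were 76.4, 106, 100.04 and 126 CPM in TA labelled WT, TA labelled DMD, EOM labelled WT and EOM labelled DMD. The ratios were 1.39 (1.21 to 1.59) in TA and 1.26 (1.01 to 1.57) in EOM, so each Per3 difference was small beside that of Dbp in the same cells. Satellite-like ratios were 1.46 in TA (0.948 to 2.31) and 1.64 in EOM (1.15 to 2.38). The highest ratio, 4.36 in TA myofibre-like cells (1.23 to 23.5), came from 3 and 15 UMIs. Of the 210 TA labelled DMD myofibre-like cells, 42 lay in a cluster led by Myog, a factor of muscle differentiation.

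Per1, which responds to hormone and cAMP signals as well as to the clock, had no common direction. Endothelial-like levels were 10.8, 8.86, 8.45 and 9.72 CPM in the order used above, and no interval of the ratio excluded 1. Mural-like cells held 26.3 CPM in TA labelled WT and 15 in TA labelled DMD, 1.76-fold lower (1.01 to 2.94), against 19.3 CPM in each EOM library. Per1 was higher in 4 pairs of class and muscle and lower in 4.

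Nr1d1 and Nr1d2 encode the REV-ERB nuclear receptors, which repress Arntl. Nr1d1 in endothelial-like cells was at 94.8, 115, 119 and 120 CPM in TA labelled WT, TA labelled DMD, EOM labelled WT and EOM labelled DMD. The ratio was 1.21 (1.07 to 1.37) in TA and 1.005 (0.814 to 1.24) in EOM, a small difference in the cells in which Arntl was lower in both muscles. Satellite-like cells held 234, 168, 250 and 242 CPM, with Nr1d1 1.39-fold lower in TA labelled DMD (1.04 to 1.86). EOM FAP-like cells had 191 and 268 CPM, a ratio of 1.40 (1.24 to 1.60). TA myofibre-like cells had 121 and 38.5 CPM, 3.16-fold lower (1.59 to 6.71), with the cluster led by Myog among them. The RefSeq annotation places Nr1d1 over Thra, and Per2 over an uncharacterised locus, and whether counting used strand is not given, so reads may be shared.

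Nr1d2 was higher in endothelial-like cells of TA labelled DMD than of TA labelled WT, 103 against 71.3 CPM with a ratio of 1.45 (1.26 to 1.66). In EOM it was at 97.2 and 93.5 CPM. Mural-like cells gave 174, 123, 210 and 161 CPM in the order used above, 1.41-fold lower in TA (1.16 to 1.71) and 1.30-fold lower in EOM (0.979 to 1.73). Nr1d2 was lower in 7 of 8 pairs of class and muscle, and 1 interval excluded equality in each direction. Since only 34.6% to 43.6% of all genes lay above 0 in these contrasts, that count is not read as a trait of Nr1d2. The sign of the smallest differences depended on scaling. With edgeR's TMM factors, which shift log2 ratios of labelled DMD over labelled WT up by 0.10 to 0.20, Nr1d1 was higher in 5 of the 6 shared pairs rather than 2, and Per2 in 6 rather than 4. Arntl stayed lower in all 6 and Tef and Per3 higher in all 6 under TMM, and Dbp higher in 4.

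Ciart, a repressor of the activator pair that is among the most rhythmic clock genes, was near the limit of detection. Endothelial-like cells held 2.84, 7.98, 2.82 and 7.29 CPM, from 11, 63, 4 and 12 UMIs. Both libraries labelled DMD were above both labelled WT, with ratios of 2.81 in TA (1.47 to 5.91) and 2.59 in EOM (0.784 to 11). In mural-like cells 1 to 12 UMIs were counted per library, and in satellite-like cells 0 to 2.

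**Figure D2:**
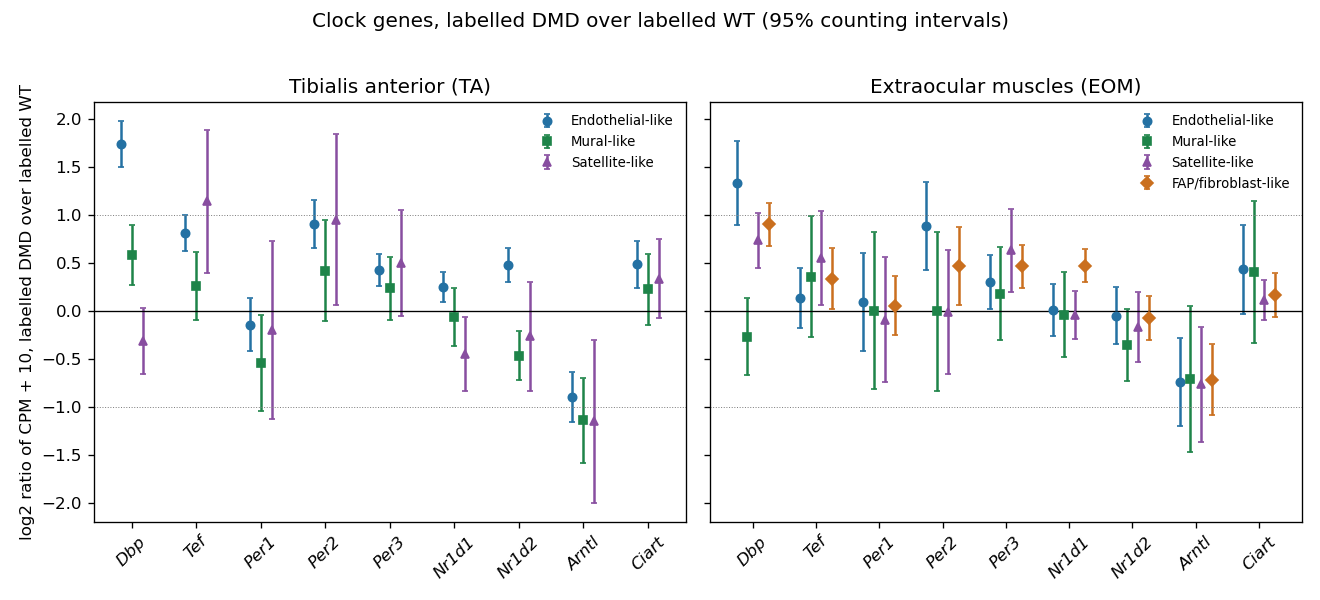
Log2 ratio of labelled DMD over labelled WT for each of the 9 genes in endothelial-like, mural-like, satellite-like and, in EOM, FAP-like cells (prior of 10 CPM on both sides), with approximate 95% counting intervals. Arntl lies below 0 and Per3 above 0 in each class shown, and among the classes Dbp is highest in endothelial-like cells, at 1.73 in TA and 1.33 in EOM.

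Dbp and Arntl had opposite signs, Dbp higher and Arntl lower in labelled DMD, in 5 of 8 pairs of class and muscle. The ratio of Dbp to Arntl UMIs in endothelial-like cells was 0.777 in TA labelled WT, 10.3 in TA labelled DMD, with 0.50 in EOM labelled WT and 3.50 in EOM labelled DMD. In mural-like cells it was 2.11, 9.84, 5.21 and 8.62, from 36, 57, 14 and 13 Arntl UMIs. In satellite-like cells it was 16.2, 89.0, 5.36 and 20.6, from only 6, 2, 22 and 16 Arntl UMIs. EOM FAP-like cells went from 3.18 to 12.9, and TA labelled DMD FAP-like cells had 12.7. The ratio was higher in the library labelled DMD in each of these pairs, including EOM mural-like and TA satellite-like cells, in which Dbp itself was lower. TA myofibre-like cells went the other way, from 14 (1 Arntl UMI) to 4.25 (4 Arntl UMIs). Capture per transcript differs between genes, so the ratio is read across libraries only.

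**Figure D3:**
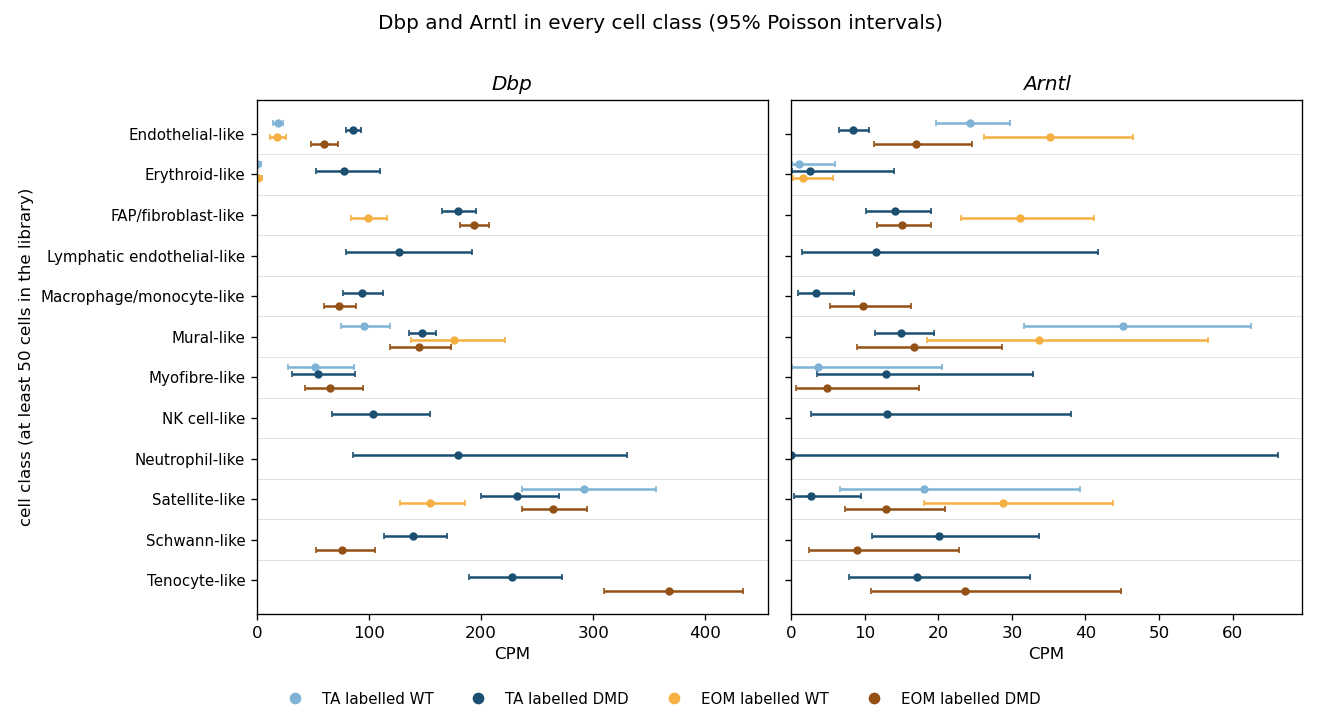
Dbp and Arntl in CPM (horizontal axes, from 0) for each class with at least 50 cells (rows), coloured by library, with exact 95% Poisson intervals that cover counting error only. Endothelial-like cells of the libraries labelled WT hold 17.6 and 18.9 CPM of Dbp with 35.2 and 24.3 CPM of Arntl, while those labelled DMD hold 59.5 and 86.0 CPM of Dbp with 17.0 and 8.36 CPM of Arntl.

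Libraries filled different clusters of 1 class. Endothelial-like cells of TA labelled WT lay mainly in cluster 0 (609 cells) and cluster 6 (471), and those of TA labelled DMD in cluster 12 (804) and cluster 1 (745). Cluster 12, led by Plvap and Selp, held 13 cells of TA labelled WT and had 108 CPM of Dbp and 5.35 CPM of Arntl in TA labelled DMD. Ratios were therefore also taken within single clusters that had at least 50 cells in both libraries. In TA, Dbp was higher in the library labelled DMD in all 5 endothelial-like clusters compared. In cluster 1 it was at 16.3 CPM (12 UMIs, 256 cells) and 71.8 CPM (166 UMIs, 745 cells), a ratio of 4.39 (2.45 to 8.68). The same cluster in EOM gave 21.2 and 51.8 CPM, a ratio of 2.45 (1.25 to 5.25). The TA ratio within cluster 1 was thus close to the 4.56 of the whole class, and the EOM ratio was below the 3.38 of the class.

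Mural-like cells of TA labelled WT lay mainly in cluster 7 (120 of 180), while TA labelled DMD had 723 cells in cluster 10, 452 in cluster 15 and 254 in cluster 7. Within cluster 7, Dbp was at 112 CPM in TA labelled WT and 261 in TA labelled DMD, a ratio of 2.33 (1.71 to 3.22), larger than the 1.55 of the whole class. In EOM the same cluster had 230 and 236 CPM, a ratio of 1.02. Satellite-like cells lay in cluster 9 in TA labelled WT (50 of 56) and in cluster 17 in TA labelled DMD (232 of 296). Cluster 9 alone gave 299 and 229 CPM of Dbp in TA, and 155 and 275 CPM in EOM, a ratio of 1.77 (1.43 to 2.20).

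Over the 7 single clusters compared in TA, Arntl was lower in the library labelled DMD in 7, Dbp higher in 6 (all but satellite-like cluster 9), Per2 higher in 6, Per3 higher in 7 and Nr1d1 higher in 3. Over the 6 in EOM, Arntl was lower in 6, Dbp and Per2 higher in 6, Per3 higher in 5 and Nr1d1 higher in 3. Log2 ratios of Arntl ranged from -1.60 to -0.20 in TA and from -2.69 to -0.22 in EOM, and those of Dbp from -0.37 to 2.22 and from 0.03 to 2.23. Clusters of a library are not replicates, since they share its animal and its preparation.

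**Figure D4:**
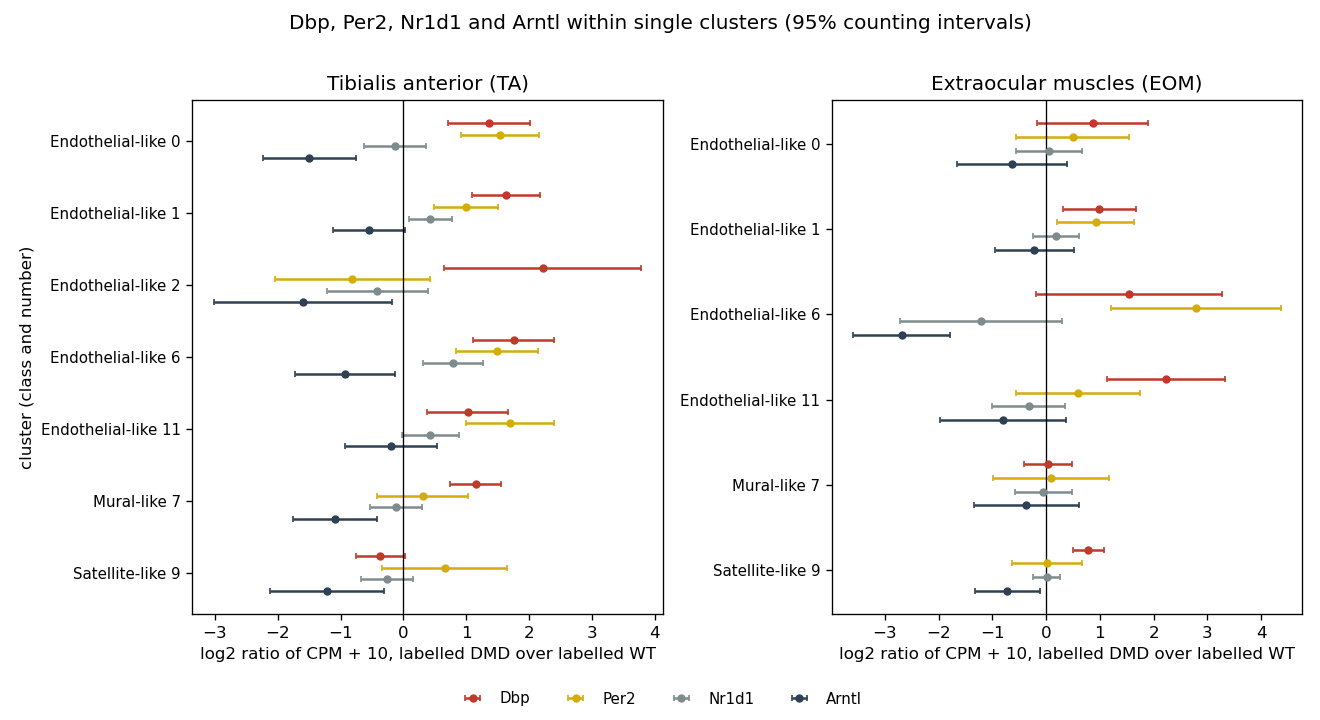
Log2 ratio of labelled DMD over labelled WT for Dbp, Per2, Nr1d1 and Arntl (colours) within single clusters that had at least 50 cells in both libraries (rows), by muscle, with approximate 95% counting intervals. Points for Arntl lie below 0 in 7 of 7 TA and 6 of 6 EOM clusters, and points for Dbp above 0 in 6 of 7 and 6 of 6.

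Free RNA and depth also differed between libraries. Dcn, a gene of FAP-like cells, stood in endothelial-like cells of TA labelled DMD at 1.29% of its FAP-like level, and Rgs5, a gene of mural cells, at 4.51% of its mural-like level. Dbp in those endothelial-like cells was at 47.9% of its FAP-like and 58.3% of its mural-like level. In EOM labelled DMD the shares were 0.418% for Dcn and 0.886% for Rgs5, and 30.7% and 41.3% for Dbp. Dbp was counted in each class of at least 50 cells of both libraries, so its free RNA has no single source class. The Dbp shares therefore cannot show how much of the endothelial-like level is carry-over, and that part was not tested. Flt1, an endothelial gene, was at 2.74% of its endothelial-like level in mural-like cells of TA labelled WT, 19.6% in TA labelled DMD, then 0.532% in EOM labelled WT and 10.2% in EOM labelled DMD. The part of this carry-over in the mural-like values was not tested.

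The share of endothelial-like cells with a Dbp UMI was 4.03%, 17.0%, 4.40% and 12.0% in TA labelled WT, TA labelled DMD, EOM labelled WT and EOM labelled DMD, with median depths of 2285, 1805, 2211 and 2558 UMIs. With each cell thinned to 1000 UMIs, and 201, 881, 40 and 70 shallower cells left out, the shares were 1.84%, 7.89%, 1.78% and 4.48%. Erythroid-like cells, which should lack the gene, gave 0%, 11.5%, 0% and 0% after thinning, with median depths of 18255, 967, 19818 and 17219.5 UMIs. The share in TA labelled DMD thus lay at or below that of its erythroid-like cells and is not read as expression or as a difference. Summed, those 271 erythroid-like cells had 77.5 CPM of Dbp (52.6 to 110, 31 UMIs), near the 86.0 CPM of endothelial-like cells, while erythroid-like cells of TA labelled WT had 0 UMIs (a limit of 3 counts is 3.18 CPM) and those of EOM labelled WT had 1. The other members had levels there too in TA labelled DMD, with 85.0 CPM of Nr1d1, 65.0 of Per3, 55.0 of Tef, 39.99 of Nr1d2 and 17.5 of Per2, against 1.06 to 6.35 CPM where any UMI was counted in erythroid-like cells of TA and EOM labelled WT. Arntl stood at 2.50 CPM there from 1 UMI. The part of this background in the TA ratios of the members was not tested. The same cells held Dcn at 6.79% of its FAP-like level and Rgs5 at 14.9% of its mural-like level. Arntl thinned to 2.42%, 0.935%, 3.76% and 1.75% of endothelial-like cells and to 0% of erythroid-like cells in each library, for which a limit of 3 cells gives 5.26%, 2.29%, 4.55% and 30% in the order used above.

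Levels also differed between classes within a library. In TA labelled DMD, Dbp ranged over 11 classes from 54.5 CPM in myofibre-like to 232 CPM in satellite-like cells, with a median of 139 CPM. Tenocyte-like cells (228 CPM), FAP-like cells (180 CPM), mural-like cells (147 CPM), lymphatic endothelial-like cells (127 CPM) and macrophage-like cells (93.4 CPM) lay between. In EOM labelled DMD it ranged over 8 classes from 59.5 CPM in endothelial-like to 368 CPM in tenocyte-like cells. Erythroid-like cells, described above, were left out of these ranges. In TA labelled DMD they held 77.5 CPM of Dbp (52.6 to 110), above the myofibre-like level. The macrophage-like level lay inside that interval. The part of this background in the levels of other classes was not tested. Endothelial-like cells were the lowest of 4 classes in both libraries labelled WT, with 18.9 and 17.6 CPM against highest values of 292 CPM in satellite-like cells of TA and 176 CPM in mural-like cells of EOM. In TA labelled DMD the neighbours satellite-like and tenocyte-like did not differ beyond their counting intervals.

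Other members had other orders. Per2 was highest in endothelial-like cells in 3 libraries, at 19.1 CPM in TA labelled WT, 44.3 in TA labelled DMD and 38.3 in EOM labelled DMD. Nr1d2 was highest in mural-like cells in 3 libraries, at 174, 210 and 161 CPM in TA labelled WT, EOM labelled WT and EOM labelled DMD. Nr1d1 reached 368 CPM in tenocyte-like cells of EOM labelled DMD and was lowest there in macrophage-like cells, at 29.8 CPM. Macrophage-like cells also held little Per3, 32.2 CPM in TA labelled DMD and 22.2 in EOM labelled DMD, where FAP-like cells held 138 and 152 CPM.

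The members past 2-fold are given here beside the share of all genes past it. A gene counts here if it had at least 20 CPM in 1 of the libraries compared, and it is past 2-fold if its log2 ratio with a prior of 10 CPM is at least 1 in size. Between labelled DMD and labelled WT in TA, 1 of 7 members was past it in endothelial-like cells (Dbp, higher, log2 ratio 1.73) beside 7.92% of all genes. In mural-like cells 1 of 8 was (Arntl, lower, -1.14) beside 6.97%, and in satellite-like cells 1 of 6 (Tef, higher, 1.14) beside 12.3%. In EOM 1 of 7 was past it in endothelial-like cells (Dbp, higher, 1.33) beside 2.25% of all genes. In mural-like, satellite-like and FAP-like cells of EOM 0 of 6 members each were, beside 7.38%, 3.52% and 1.43%. A gene under 20 CPM in 1 library of a comparison can only be past 2-fold as higher in the other. This held for Dbp in endothelial-like cells, at 18.9 and 17.6 CPM in TA and EOM labelled WT. The members were chosen with these contrasts in view, so nothing is read from the counts.

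The median log2 ratio of the 8 members other than Arntl in TA was 0.48 in endothelial-like, 0.23 in mural-like and 0.07 in satellite-like cells, beside medians over all genes of -0.14, -0.15 and -0.08. In EOM it was 0.22 in endothelial-like, -0.00 in mural-like, 0.05 in satellite-like and 0.40 in FAP-like cells, beside -0.08, -0.10, -0.14 and -0.10. Of all genes, 1.77% lay at or above Dbp in TA endothelial-like cells and 0.653% in EOM endothelial-like cells. At or below Arntl lay 4.40% of all genes in TA endothelial-like, 1.5% in TA mural-like and 3.25% in EOM endothelial-like cells.

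The contrasts between muscles share libraries with those above. Among libraries labelled WT, 0 of 5 members in endothelial-like, 0 of 7 in mural-like and 0 of 6 in satellite-like cells were past 2-fold between EOM and TA, beside 1.3%, 3.97% and 6.49% of all genes. Among libraries labelled DMD, 0 of 6 were in each of those classes and 0 of 5 in FAP-like cells, beside 4.63%, 3.57%, 10.1% and 6.46%. Among libraries labelled WT, Dbp was 1.85-fold higher in EOM mural-like cells (1.32 to 2.58) and 1.88-fold lower in EOM satellite-like cells (1.42 to 2.49) than in TA. In endothelial-like cells of these libraries Dbp did not differ beyond counting error, while Tef was 1.53-fold higher in EOM (1.21 to 1.93) and Arntl 1.45-fold higher (1.01 to 2.07).

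Among libraries labelled DMD, Arntl in endothelial-like cells was 2.04-fold higher in EOM than in TA (1.26 to 3.21), and Dbp 1.44-fold lower (1.17 to 1.80). Nr1d1 was higher in EOM in FAP-like cells (1.48-fold, 1.34 to 1.64), satellite-like cells (1.44-fold, 1.17 to 1.78) and tenocyte-like cells (1.70-fold, 1.32 to 2.20). Dbp was 1.61-fold higher in EOM tenocyte-like cells (1.26 to 2.08) and 1.84-fold lower in EOM Schwann-like cells (1.23 to 2.81). Macrophage-like cells held 2.09-fold less Tef in EOM (1.29 to 3.45), at 19.4 CPM against 40.5 in TA. Erythroid-like cells of TA labelled DMD held 55.0 CPM of Tef, above that TA level. The part of this background in the contrasts between muscles was not tested. Differences of few molecules were larger. Arntl in satellite-like cells was 4.92-fold higher in EOM (1.16 to 44.1, 16 and 2 UMIs). Per3 in myofibre-like cells was 6.67-fold lower in EOM (1.89 to 35.9, 3 and 15 UMIs), and Per2 there had 0 UMIs in EOM and 6 in TA.

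The rest of the loop was read from a list of 18 other activators, repressors, kinases and ligases, of which 7 to 11 had enough counts per class. In TA, 1 of 7 genes in endothelial-like, 1 of 9 in mural-like and 1 of 8 in satellite-like cells was past 2-fold, higher in labelled DMD. The shares of all genes past 2-fold in either direction there were 7.92%, 6.97% and 12.3%. Nfil3, a repressor at D-boxes, was at 6.97 CPM in TA labelled WT and 40.1 CPM in TA labelled DMD in endothelial-like cells, a ratio of 5.76 (3.88 to 8.87), and at 15 and 45.7 CPM in satellite-like cells. In mural-like cells it was Bhlhe40, a repressor at E-boxes, at 2.51 and 27.3 CPM. Cry2, a repressor that pairs with PER proteins, was at 32.5 and 63.0 CPM in TA endothelial-like cells, a ratio of 1.94 (1.59 to 2.37). In mural-like cells it was at 63.9 and 121 CPM in TA and at 48.2 and 157 CPM in EOM, with ratios of 1.90 (1.42 to 2.59) and 3.26 (2.02 to 5.52). Clock, the partner of ARNTL, was at 51.1 and 36.0 CPM in TA endothelial-like cells and 1.91-fold lower in EOM FAP-like cells labelled DMD, but at 53.5 and 52.2 CPM in EOM endothelial-like, 37.6 and 39.7 in TA mural-like and 38.6 and 47.7 in EOM mural-like cells. Btrc, a subunit of a ubiquitin ligase that marks PER proteins for degradation, was 1.99-fold lower in EOM mural-like cells labelled DMD. Nfil3, Bhlhe40 and Clock were picked out after their values were seen. In EOM, 0 of 8 genes of the list were past 2-fold in endothelial-like, 1 of 10 (higher) in mural-like and 1 of 11 (lower) in satellite-like cells. The shares of all genes there were 2.25%, 7.38% and 3.52%. The list's median log2 ratios were -0.21, -0.15 and -0.26 in TA endothelial-like, mural-like and satellite-like cells, and 0.01, -0.07 and -0.12 in EOM.

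Among 10 clock output genes outside the loop, 0 of 8 were past 2-fold in TA endothelial-like, 0 of 10 in mural-like and 1 of 10 in satellite-like cells. The shares of all genes past 2-fold there were 7.92%, 6.97% and 12.3%. The gene in satellite-like cells was Usp2, a ubiquitin protease, at 102 CPM in TA labelled WT and 13.1 CPM in TA labelled DMD. In EOM mural-like cells 4 of 10 were past 2-fold and higher, beside 7.38% of all genes. Among them were Klf10 (3.87-fold), Pfkfb3 (3.33-fold) and Coq10b (2.51-fold). Endothelial-like and satellite-like cells of EOM had 0 of 8 and 0 of 9 past 2-fold, beside 2.25% and 3.52% of all genes.

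Genes induced by glucocorticoids, hormones with a daily rhythm and a stress response, were counted beside the members. Of this list of 9, in TA 5 of 8 were past 2-fold and higher in labelled DMD in endothelial-like cells, 4 of 8 in mural-like and 2 of 7 in satellite-like cells, with 0 lower and median log2 ratios of 1.18, 0.99 and 0.94. The shares of all genes past 2-fold in either direction there were 7.92%, 6.97% and 12.3%. Mt2A, a metallothionein, was at 5.94 and 153 CPM and Angptl4, an inhibitor of lipoprotein lipase, at 5.94 and 130 CPM in TA endothelial-like cells. In EOM 2 of 7, 3 of 8 and 3 of 7 were higher and 0, 0 and 1 lower, with medians of -0.06, 0.62 and 0.53, beside 2.25%, 7.38% and 3.52% of all genes. The summed level of the list was 1043, 1265, 1023 and 871 CPM in endothelial-like cells in the order used above. It was 1610, 1813, 1617 and 1508 CPM in mural-like cells and 938, 1778, 695 and 918 CPM in satellite-like cells. In EOM the sum was thus lower in labelled DMD in endothelial-like and mural-like cells and higher in satellite-like cells. Sgk1, a kinase, was at 33.7 and 171 CPM in EOM mural-like cells. Fkbp5 and Zbtb16, chosen after their values were seen, were higher in the library labelled DMD in all 3 classes of both muscles. In endothelial-like cells Fkbp5, a chaperone of the glucocorticoid receptor, was at 5.42, 41.1, 2.11 and 21.9 CPM, and Zbtb16 at 12.7, 44.4, 7.75 and 29.8 CPM in the order used above. Other genes of the list did not follow in endothelial-like cells. Tsc22d3 was lower in EOM labelled DMD, with 114, 156, 111 and 57.1 CPM. Sgk1 (544, 408, 645 and 539 CPM) and Ddit4 (320, 245, 187 and 125 CPM) were lower in labelled DMD in both muscles. Mt2A and Angptl4 were higher there in EOM too, at 9.86 and 26.1 CPM and at 2.82 and 16.4 CPM.

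Immediate early genes, which respond to digestion as well as to signals in the animal, and heat shock genes were counted likewise. Of the immediate early list, 11 of 12 genes were in the table, and 10 had enough counts in endothelial-like cells. Of these 10, 1 was higher and 1 lower past 2-fold in TA, beside 7.92% of all genes. In EOM endothelial-like cells 2 of 10 were higher, beside 2.25% of all genes. Their summed level in endothelial-like cells was 23161, 26890, 23387 and 32385 CPM. Nr4a1, a nuclear receptor induced within minutes, was 3.79-fold lower in TA satellite-like cells labelled DMD (673 and 178 CPM) and 2.98-fold higher in those of EOM (142 and 422 CPM). Inducible heat shock genes summed to 3559, 2008, 3947 and 2064 CPM in endothelial-like cells. There 2 of 5 were lower past 2-fold in each muscle, beside 7.92% of all genes in TA and 2.25% in EOM. Among them Hspa1b was at 999 and 296 CPM in TA and at 1722 and 477 CPM in EOM. The part of hormone, digestion or stress in the members' values was not tested.

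The genes most like Dbp across 27 sums of class and library were found among the 3181 genes with a mean of at least 50 CPM, by Pearson's r on the log2 scale, as a description. They were C1qtnf5 (0.83), Cd63 (0.83), Prelp (0.83), Notch2 (0.79) and Serping1 (0.79). The members' own values were 0.53 for Nr1d1, 0.37 for Per3, 0.29 for Nr1d2, 0.10 for Tef, 0.05 for Per1, -0.05 for Per2, -0.07 for Arntl and -0.11 for Ciart. The sums of 1 library share its preparation, depth and free RNA, and they are not independent points.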

How the data were processed

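The authors deposited raw UMI counts (whole numbers) for each barcode, with no normalization. Per the file headers, counting was by Cell Ranger 4.0.0. Per the submitters' processing notes, the build was rn6. The sources used here give neither annotation nor cell calling nor use of strand. Barcodes with under 200 genes or over 20% mitochondrial UMIs were left out, which removed 40.3%, 4.42%, 34.2% and 25.5% of barcodes in TA labelled WT, TA labelled DMD, EOM labelled WT and EOM labelled DMD. Scrublet's own threshold marked 8, 0, 5 and 16 cells, too few for a working call, so the highest scores were removed at 0.8% per 1000 cells (36, 585, 13 and 42). The libraries were clustered together (2000 variable genes, 30 components, 15 neighbours, Leiden resolution 1.0), giving 32 clusters and 15 classes named from 23 marker lists. Counts were summed per class and library, and a log2 ratio has a prior of 10 CPM on both sides. Total analysed counts were 6725438, 19196936, 6522986 and 12113554 UMIs.

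No p-value is given, because each group is 1 library. The headline value of a comparison is the median log2 ratio of the 8 members other than Arntl, averaged over 3 shared classes. The ratio step was tested on simulated counts. The members and all gene lists were chosen with earlier results of these data known. All members are named; a gene of another list is named if it reached 50 CPM in 1 library and its log2 ratio was among the 3 largest in size of its list in that comparison. Of the genes this rule names, 1 is not reported here. Genes past 2-fold that the rule missed are said to be picked after their values were seen. The 5 genes most like Dbp were named. Promoters are RefSeq's, build GRCr8, and coordinates are of that build only. Alternatives were stricter cells, no doublet removal, priors of 1 and 50 CPM, TMM scaling, totals without mitochondrial and haemoglobin genes, resolution 0.5, libraries clustered alone, thinning to 1000 UMIs, low members left out, all cells summed and, added after seeing the data, 1 matched cluster per class. Tools were Python 3.11.15, numpy 2.4.6, scipy 1.17.1, pandas 2.3.3, scanpy 1.11.5, anndata 0.12.19, igraph 0.11.9, matplotlib 3.10.9, R 4.3.3 and edgeR 4.0.16 (TMM only).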

Additional observations from a re-analysis of the deposited data

How the results depend on the processing

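The median log2 ratio of labelled DMD over labelled WT, over the 8 genes other than Arntl and 3 classes, was 0.26 in TA and 0.09 in EOM; that of EOM over TA was 0.12 labelled WT and 0.00 labelled DMD. With all cells summed and no classes it was 0.52 in TA, 0.38 in EOM and -0.18 for EOM over TA labelled DMD, and with 1 matched cluster per class it was 0.53 in TA. The mean share of genes past 2-fold was 9.07% for TA, 4.39% for EOM, 3.92% between muscles labelled WT and 6.12% labelled DMD. With no filter on low values it was 5.14% for TA, 2.66% for EOM and 3.11% between muscles labelled DMD, since more genes enter the denominator. With a prior of 1 CPM the 4 shares were 14.2%, 9.07%, 8.18% and 9.74%. Of 1080 alternative values for single genes, 1001 moved by less than their counting error. The sign turned in 81, of which 60 had a log2 ratio under 0.2 in size; 21 of the 81 came with thinning to 1000 UMIs and 17 with 1 matched cluster per class. Of these, 1 had been past 2-fold: Tef in TA satellite-like cells, 1.14, became -0.067 when thinned. No paired analysis was possible because each group is 1 library, and for the same reason no library could be left out. Depth limits Ciart, Per1 and the satellite-like values of Arntl most.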
